A study of Mus musculus with 10 samples.

Results

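The RNA levels of 7 MHC class II antigen presentation genes were described in sorted crypt cells of the mouse small intestine. The genes were Cd74, H2-Aa, H2-Ab1, H2-Eb1, H2-DMa, H2-DMb1 and Ciita, found by name among 35006 gene names in the count files, and all 7 were present. All 7 passed the filter on low counts. They were chosen by their counts in the 5 sorted populations, compared within each replicate number and already known, so their differences between populations are given below as a description, with no test. The cells came from C57BL6/J mice that carry EF1a-OSCAR, a reporter placed at the Rosa26 locus and driven by the EF1a promoter after a stop cassette had been removed with Vasa-Cre. The reporter makes mCherry together with VeN90, a Venus protein holding a peptide that the transcription kinase CDK9 phosphorylates, and it was used to sort live EpCAM+ cells by their relative Venus signal (OSCAR) and by their overall reporter signal (EF1a). The labels name P1 as OSCARlow EF1alow, P2 as OSCARhigh EF1alow, P3 as OSCARlow EF1ahigh, P4 as OSCARmed EF1alow and P5 as OSCARmed EF1ahigh. Each population has 2 libraries, numbered 1 and 2, from 10000 sorted cells each. No age or sex is given in the labels. Total counts on genes ran from 3857612 to 6485823 per library.

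MHC class II molecules carry peptides from endocytosed protein to the cell surface, where CD4+ T cells read them. An alpha chain and a beta chain pair in the endoplasmic reticulum around the invariant chain, which blocks the groove until the H2-DM heterodimer exchanges its last fragment for a peptide. Professional antigen-presenting cells make these proteins constitutively, while epithelial cells, including those of the small intestine, make them when interferon gamma induces the transactivator CIITA.

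Before the genes are described, the libraries themselves need a word. The libraries labelled P2 held the Paneth cell transcripts, with summed levels of 562692 and 399239 CPM (counts scaled to a common library size) for the 7 Paneth markers, whereas the sums in the libraries labelled P3 were 3401 and 1803 CPM. The marker plots of the study place secretory genes in P3 instead, so P2 and P3 below are names as labelled. By the study's own FACS measurements, sorted P2 cells had a high OSCAR signal and P3 cells a low one. The study also found the lowest RNA content per cell in P2. Those measures were made on cells and not on these libraries, and whether the library labels were exchanged was not tested. The libraries labelled P3 also held 59.2% and 36.1% mitochondrial counts, against 1.04% to 5.19% in the others. CPM are given on library sizes scaled by edgeR's trimmed mean of M values (TMM), which limits the effect of such dominant genes. The libraries numbered 1 and 2 differed in sex-linked transcripts in every population. Xist, the RNA that silences an X chromosome in female cells, was at 160.3 to 1374 CPM in the 5 libraries numbered 1 and at 0.167 to 1.29 CPM in those numbered 2. The Y-linked gene Ddx3y had no count in any library numbered 1 and 24.6 to 50.2 CPM in those numbered 2. Xist and Ddx3y were named after their values were seen. The labels do not say what a number stands for, and the sex of the animals and the number cannot be told apart. The text of the study speaks of biological replicates.

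The genes of 5 members lie close together on chromosome 17 in the mouse build NCBIM37 (mm9), in the order H2-DMa (34272127 to 34276046, plus strand), H2-DMb1 (34290017 to 34297168, plus), H2-Ab1 (34400154 to 34406363, plus), H2-Aa (34406276 to 34424772, minus) and H2-Eb1 (34442828 to 34453144, plus). Ciita lies on chromosome 16 (10480237 to 10527657, plus), and Cd74 lies on another chromosome. H2-Aa and H2-Ab1 overlap at their 3′ ends on opposite strands. The library kit does not keep the strand, so reads from that overlap cannot be assigned to either gene by strand. H2-DMb1 has a close copy in H2-DMb2, which had no count in any library. Reads that match more than 1 place were not counted.

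RefSeq promoter entries (build GRCm38.p6) matched 4 of the 7 genes, namely H2-Aa, H2-Eb1, H2-DMb1 and H2-DMa, the last with 2 start sites. Class II promoters are known for a shared module of X and Y boxes bound by the RFX and NF-Y complexes, on which CIITA acts. The promoters of an alpha chain, a beta chain and a DM chain are shown because these genes moved together in the libraries. Each stretch is the 140 bases directly before the start site, at chr17:34287824-34287963 (minus strand), chr17:34305727-34305866 (plus strand) and chr17:34153051-34153190 (plus strand). Capitals mark GATTGG, the core of the Y box, on either strand, and GNAAC where it begins 20 to 40 bases upstream of a GATTGG on the same strand.
H2-Aa: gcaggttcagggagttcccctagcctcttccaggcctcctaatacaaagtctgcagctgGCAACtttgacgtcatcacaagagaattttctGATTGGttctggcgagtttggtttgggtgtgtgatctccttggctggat
H2-Eb1: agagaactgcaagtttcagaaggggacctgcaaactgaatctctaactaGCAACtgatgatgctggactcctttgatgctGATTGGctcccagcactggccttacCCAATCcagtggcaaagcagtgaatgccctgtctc
H2-DMb1: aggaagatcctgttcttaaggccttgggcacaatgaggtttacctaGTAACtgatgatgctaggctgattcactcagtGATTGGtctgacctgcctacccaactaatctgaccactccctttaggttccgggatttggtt

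In all 3 sequences a GNAAC began 31 or 32 bases upstream of a GATTGG. That GATTGG began 49 bases before the start in H2-Aa, 60 in H2-Eb1 and 62 in H2-DMb1, and H2-Eb1 had another on the opposite strand. Of the 32851 promoter entries of the mouse table, 14.6% held GATTGG on either strand within the 250 bases before the start, 79.6% held GNAAC, and 1.05% held the pair at this spacing. Both H2-DMa entries lie upstream of the annotated gene start, by the offset that the other 3 genes show between the builds, so they are not described. The interferon gamma activated site TTCNNNGAA, in 7.02% of all entries, was in none of the 3 described entries. The letters and the spacing were chosen after the sequences had been read, and a match describes letters in a window, not a site in use.

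Cd74, which encodes the invariant chain, was the most abundant member in 9 of the 10 libraries on the per-kilobase scale. In P1 it was at 62.7 CPM in the library numbered 1 and 398 CPM in that numbered 2. In the libraries labelled P2 it was at 2.44 and 50.2 CPM, and in those labelled P3 at 51.0 and 236 CPM. In P4 it was at 21.4 and 188 CPM, and in P5 at 37.1 and 212 CPM. Within each number the order was therefore P1, P3, P5, P4 and P2. A larger share of cells making a transcript and more of it per cell cannot be told apart in such bulk libraries. P1 exceeded its nearest neighbour, P3, by a ratio of 1.23 within number 1 and 1.69 within number 2. The library numbered 2 was above that numbered 1 in every population, by ratios of 4.63 to 20.6, and the number moved Cd74 further than most differences between populations did.

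The peptide-binding chains followed the same order in part. H2-Aa, the alpha chain of the I-A molecule, was at 31.7 and 165.9 CPM in P1 (numbers 1 and 2), and at 23.4 and 59.7 CPM in the libraries labelled P3. It was at 11.6 and 37.3 CPM in P5, and at 2.95 and 18.4 CPM in P4. The libraries labelled P2 had 1 count of it in number 1 and 88 counts, or 19.6 CPM, in number 2. P1 thus exceeded P4 by ratios of 10.7 and 9.04 within the numbers. H2-Eb1, which encodes the beta chain of the I-E molecule, was at 26.4 and 139.8 CPM in P1, against 15.9 and 54.2 CPM in the libraries labelled P3. It was at 12.03 and 37.1 CPM in P5, at 5.77 and 29.6 CPM in P4, and at 3.66 and 14.5 CPM in the libraries labelled P2. Its order within each number was that of Cd74. The row for the alpha chain of I-E, H2-Ea-ps, is annotated as a pseudogene and had no count in any library. The levels of H2-Eb1 therefore describe its RNA and not an I-E molecule. H2-Ab1, the beta chain of I-A, spread less: 24.6 and 93.5 CPM in P1, 30.8 and 80.2 CPM in the libraries labelled P3, and 27.5 and 47.7 CPM in P5. It was at 10.3 and 41.3 CPM in P4 and at 7.62 and 28.1 CPM in the libraries labelled P2. In number 1 it was highest in P3 and in number 2 in P1, and P1 was below P3 and P5 in number 1.

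**Figure D1:**
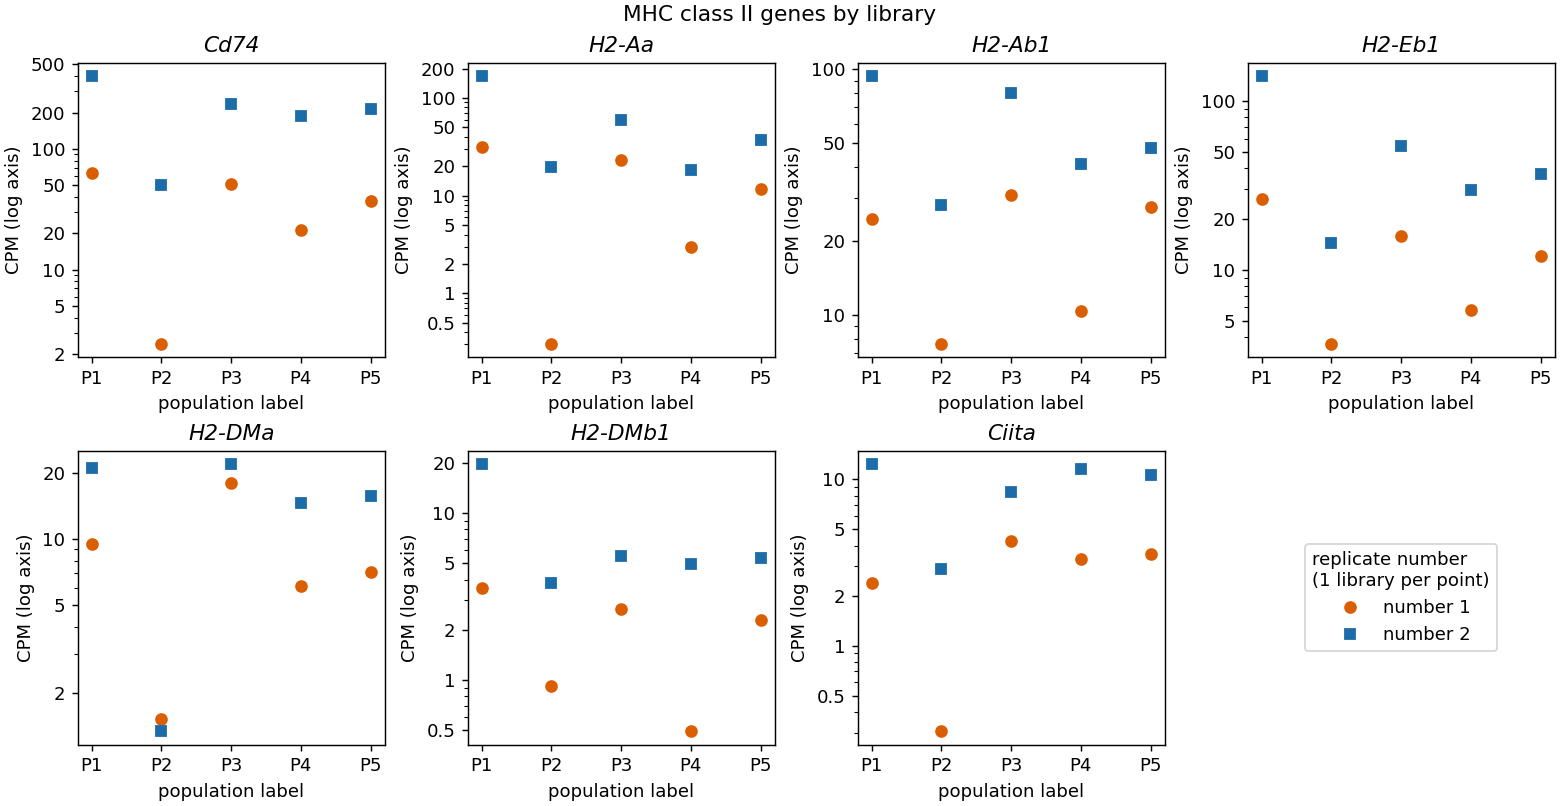
Levels of the 7 class II genes in the 10 libraries, in CPM on a log axis for each gene, against the population label; circles are the libraries numbered 1 and squares those numbered 2, with 1 library per point. For 6 genes the square lies above the circle in all 5 populations; for H2-DMa it does in 4, and in P2 the levels are 1.52 and 1.34 CPM.

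H2-DMa and H2-DMb1 encode the chains that load peptide onto the molecules. H2-DMa was at 9.49 and 21.1 CPM in P1, at 18.05 and 22.0 CPM in the libraries labelled P3, and at 7.10 and 15.7 CPM in P5. In P4 it was at 6.14 and 14.6 CPM. It was highest in P3 in both numbers and lowest in P2, with 5 and 6 counts there. H2-DMb1 was at 3.56 and 19.7 CPM in P1 and between 0.491 and 5.55 CPM elsewhere, so that in number 2 P1 exceeded every other population by a ratio of 3.56 or more. In number 1 H2-DMb1 had at most 21 counts in any library. Ciita, the transactivator, was at 2.37 and 12.4 CPM in P1, 4.25 and 8.44 CPM in the libraries labelled P3, 3.32 and 11.6 CPM in P4, and 3.55 and 10.7 CPM in P5. The libraries labelled P2 had 1 and 13 counts of it. Ciita in P1 was below P5, P4 and P3 in number 1 and above them by ratios of only 1.07 to 1.47 in number 2.

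With 2 libraries per population, the spread was as large as most differences. Cd74 averaged 230.4 ± 237 CPM (SD, n = 2) in P1, 143 ± 131 in P3, 125 ± 124 in P5, 105 ± 118 in P4 and 26.3 ± 33.8 in P2. Over the 7 genes, 28 pairs of neighbours in the order of population means were compared, and in 2 of them the means were further apart than the larger SD. Those were H2-DMa in P4 above P2 (10.4 ± 5.97 against 1.43 ± 0.131 CPM) and Ciita in P3 above P2 (6.34 ± 2.96 against 1.60 ± 1.83 CPM). All other neighbours did not differ beyond this spread. It includes the difference between the numbers, and the orders of Cd74, H2-Eb1 and H2-DMa, the last with P3 above P1, were the same within number 1 and within number 2. The fitted log2 fold change of P1 against the average of P2 to P5 was 2.42 for H2-Aa, 2.08 for H2-Eb1, 1.83 for H2-DMb1, 1.45 for Cd74, 0.996 for H2-DMa, 0.90 for H2-Ab1 and 0.57 for Ciita. Their median was 1.45, against -0.05 over the 13706 genes tested. It was 2.24 without P1 replicate 1 and 0.10 without P1 replicate 2. Leaving out a library of another population gave 1.20 (without P2 replicate 1) to 2.16 (without P2 replicate 2), with 2.02 without P4 replicate 2.

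The balance among the members also differed between populations. Per kilobase, the ratio of H2-Aa to H2-Ab1 was 1.07 and 1.47 in P1, 0.628 and 0.617 in the libraries labelled P3, 0.348 and 0.647 in P5, and 0.236 and 0.368 in P4. The summed CPM of the 3 chains were 34.9 and 32.3 times those of Ciita in P1, 16.5 and 23 times in the libraries labelled P3, 14.4 and 11.4 times in P5, and 5.74 and 7.68 times in P4. In the libraries labelled P2 the first ratio was 0.0331 and 0.578, and the second 38 and 21.5, with 1 count of H2-Aa and 1 of Ciita in number 1. P1 lay above the other 4 populations in the first ratio, whereas in the second the library labelled P2 numbered 1 lay above that of P1. The ratio of Cd74 to H2-Ab1 per kilobase was higher in number 2 in every population. In P1 it was 2.98 in number 1 and 4.96 in number 2. The libraries labelled P3 had 1.93 and 3.43, P5 had 1.57 and 5.20, and P4 had 2.42 and 5.31. For P2 it was 0.373 and 2.08, so that its value in number 2 lay below those of P1 and P4 in number 1. These ratios carry the uncertainty of the H2-Aa and H2-Ab1 overlap and were not tested.

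The difference between numbers was noticed in these values and then tested on the same libraries, in a model with a term for population and a term for number. The rule that chose the genes compares populations within a number and not the numbers. The genes were nevertheless chosen with earlier results of these libraries known, so the p-values below cannot be taken as independent of that choice. Of 13706 genes tested, 44 (0.321%) passed an adjusted p of 0.01, the threshold of the study, with 17 (0.124%) higher in number 2 and 27 lower. On library size alone, without TMM, 34 passed, of which 19 were higher. Of the 7 class II genes, 3 passed, all higher in number 2 in 5 of 5 populations. DESeq2, which called 188 genes in all, called 6 of the 7, all but H2-DMa. All 7 had an unadjusted p under 0.05 in edgeR, as did 1520 of the genes tested. Counting direction alone, 6 of the 7 were higher in number 2 in all 5 populations, as were 1061 (7.74%) of the genes tested. In the quasi-likelihood test of edgeR, adjusted after Benjamini and Hochberg, the log2 fold change was 2.83 ± 0.24 (SE) for Cd74 (adjusted p = 0.00133), 2.04 ± 0.17 for H2-Eb1 (adjusted p = 0.00114) and 1.58 ± 0.20 for H2-Ab1 (adjusted p = 0.00849). H2-Aa (2.24 ± 0.34, adjusted p = 0.0203), Ciita (1.82 ± 0.33, 0.0473), H2-DMb1 (2.01 ± 0.40, 0.0736) and H2-DMa (0.89 ± 0.25, 0.209) did not pass in the same edgeR test. The median over the 7 genes was 2.01, against 0.03 over all genes tested. If the libraries of a number came from 1 animal, this test compares 2 animals over 5 sorted fractions, and its p-values measure only the spread between fractions.

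Without the P1 libraries the fold changes were about as large, but the calls depended on which of the other populations were fitted. Without both P1 libraries the log2 fold changes were 2.86 ± 0.27 for Cd74, 1.91 ± 0.20 for H2-Eb1 and 1.46 ± 0.23 for H2-Ab1, and the adjusted p-values of edgeR were 0.0147, 0.0179 and 0.0677. In that setting 5 genes passed in all, and Ddx3y, although at 0 in every library numbered 1, did not (edgeR, adjusted p = 0.0175). In P4 and P5 only, where T cell and pan-leukocyte transcripts were scarce, 1150 of 12715 genes passed (9.04%), 348 higher (2.74%) and 802 lower (6.31%) in number 2. All 7 class II genes were among the higher, with log2 fold changes of 1.17 ± 0.22 (H2-DMa) to 2.78 ± 0.13 (Cd74). This subset was chosen after seeing the data. Deviations of libraries sharing a number correlated most between P4 and P5 (0.55), and the SE measure only how far P4 and P5 differed in that shift. Genes of the other class II, interferon gamma signalling, costimulatory and class I lists passed there too, all lower in number 2 in edgeR. These were Ctss (-0.49, adjusted p = 0.00771), Jak2 (-0.51, adjusted p = 0.00153), Icosl (-0.96, adjusted p = 0.00493) and 3 of 12 class I genes, among them H2-K1 (-0.45, adjusted p = 0.00936) and H2-Q2 (-1.27, adjusted p = 3.84e-10), named after their values were seen. Over 18 alternatives Cd74 passed in 15, H2-Eb1 in 16, H2-Ab1 in 11, H2-Aa in 6, Ciita and H2-DMb1 in 3 each and H2-DMa in 1, with adjusted p-values of edgeR or DESeq2 between 3.79e-26 and 0.695. Cd74 did not pass in edgeR without P1 replicate 1 (adjusted p = 0.0101) or P1 replicate 2 (0.0117), nor did H2-Eb1 without P1 replicate 2 (0.0117). H2-Ab1 did not pass without either library of P1 (0.0554 and 0.0624), P3 (0.0191 and 0.0199) or P4 (0.0364 and 0.0393). H2-Aa passed without either library of P2 (0.00173 and 0.00186). The sign was positive for all 7 genes in all 18.

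**Figure D2:**
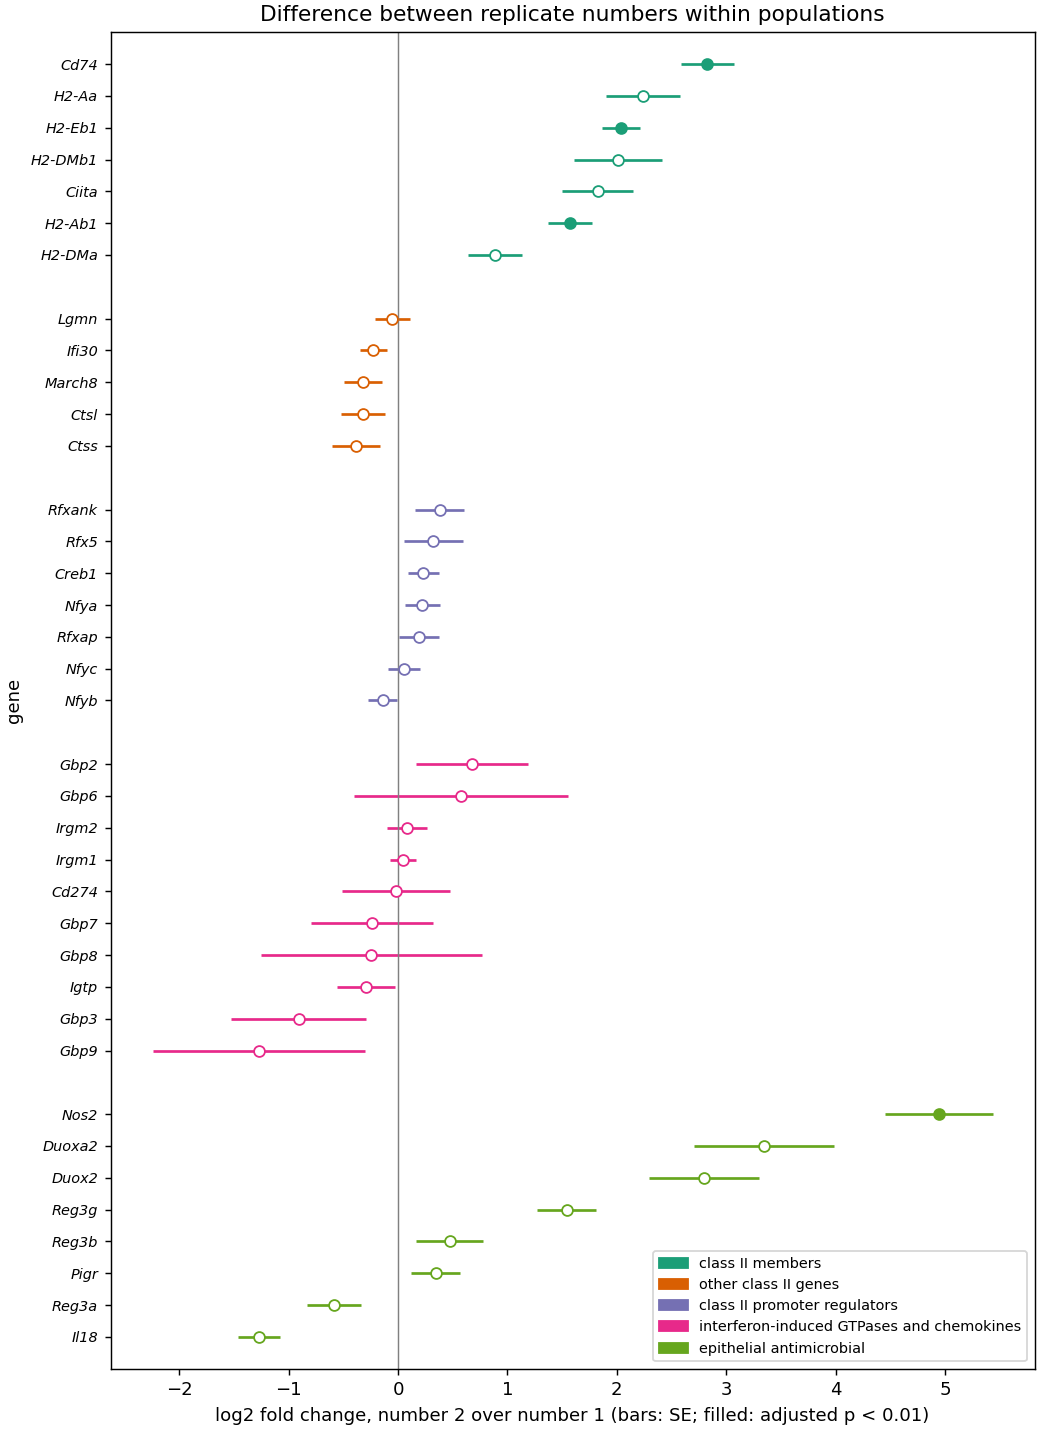
Log2 fold change of the libraries numbered 2 over those numbered 1 within populations, for the tested genes of 5 lists; bars are standard errors and filled points passed an adjusted p of 0.01. The 7 class II genes lie between 0.89 and 2.83, while the 5 other class II genes lie between -0.38 and -0.05.

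Other genes of the class II pathway were not called between the numbers over all libraries. The list of other class II genes held 11 genes. H2-DMb2 and H2-Ea-ps had no count in any library, and H2-Oa, H2-Ob, H2-Eb2 and March1 had at most 3 counts in each, which is the limit that a count of 0 allows. The 5 tested genes act on the invariant chain, on disulphide bonds or on the mature molecule at the surface, and 0 of 5 passed between the numbers in edgeR, with a median log2 fold change of -0.32. None of the 5 passed in DESeq2 or had an unadjusted p under 0.05 in edgeR, where 1520 of all genes did. Only 0.321% of all genes tested passed between the numbers in edgeR, so 0 of 5 is near that share. Against the average of P2 to P5, March8, a ubiquitin ligase that removes class II from the surface, was higher in P1 by a log2 fold change of 1.73 ± 0.23 (edgeR, adjusted p = 0.000421), with 318 to 352 CPM in P1 and 71.3 to 144 CPM elsewhere. Ctss, the cathepsin that trims the invariant chain, passed too (1.20 ± 0.29, edgeR, adjusted p = 0.00787), but not under 9 alternatives, with an adjusted p of 0.165 without P1 replicate 1, 0.0109 without P1 replicate 2, and 0.0120 to 0.0168 on library size alone, with mitochondrial genes removed, and without P2 replicate 1, P3 replicate 2, either P4 library or P5 replicate 2. Its 62.2 to 112 CPM in P1 overlapped the 5.49 to 104.6 CPM elsewhere. In this contrast 4317 genes (31.5%) passed, 2656 of them (19.4%) higher in P1 and 1661 (12.1%) lower.

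The class II promoter regulators were all tested. Between the numbers 0 of 7 passed in edgeR or DESeq2, 0 had an unadjusted p under 0.05, and the median log2 fold change was 0.22. As a background, 0.321% of all genes tested passed between the numbers in edgeR, and 19.4% were higher in P1. In P1, 1 of 7 rose: Rfxank, a subunit of the RFX complex, was at 43.5 and 48.5 CPM against 8.72 to 25.2 CPM in the other 8 libraries (log2 fold change 1.89 ± 0.28, edgeR, adjusted p = 0.000692). Without P1 replicate 2 its adjusted p was 0.0105, the highest of its alternatives. Rfx5, the subunit that binds the X box, was at 5.25 and 8.03 CPM in P1 and at 8.84 to 18.6 CPM elsewhere, and Rfxap, Nfya, Nfyb, Nfyc and Creb1 did not pass.

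Genes of interferon gamma signalling were called in P1, and none was called between the numbers over all libraries. Among all genes tested in edgeR, 19.4% were higher and 12.1% lower in P1, and 0.321% passed between the numbers. An absence of calls between the numbers in a list this short is near that last share. Ifng had at most 3 counts in any library. Of the 8 tested genes, 7 rose in P1 and 1 fell, with a median log2 fold change of 1.34. Irf1, a transcription factor that acts on Ciita, was at 317 and 298 CPM against 85.96 to 125 CPM (1.52 ± 0.16, adjusted p = 0.000225 in edgeR). Jak2, the kinase of the receptor, rose by 2.45 ± 0.27, while the receptor chains moved in opposite directions, Ifngr2 by 1.38 ± 0.22 and Ifngr1 by -1.13 ± 0.23 on the log2 scale. Without P1 replicate 1, and equally without P1 replicate 2, 4 of the 8 passed, all higher. Ifngr1 had an adjusted p of 0.0355 and 0.0343 in these settings, and Ifngr2 0.0161 without P1 replicate 2. Between the numbers 0 of 8 passed in edgeR or DESeq2, 0 had an unadjusted p under 0.05, and the median was -0.03. Socs1, the feedback inhibitor, was the weakest call at an adjusted p of 0.00988 in edgeR and did not pass under 11 alternatives, among them the leaving out of any 1 library of P1, P2, P4 or P5, with adjusted p-values up to 0.0749.

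Among interferon-induced GTPases and chemokines, 6 of 10 tested genes rose in P1 and 0 of 10 passed between the numbers in edgeR or DESeq2, or had an unadjusted p under 0.05. Irgm2 was at 40.5 and 45.3 CPM in P1 and at 6.35 to 9.55 CPM elsewhere (2.46 ± 0.19, adjusted p = 0.000134 in edgeR). The chemokine genes Cxcl9 and Cxcl10 and the GTPase gene Iigp1 had at most 3 counts in every library. Without P1 replicate 1, 1 gene of the list passed, without P1 replicate 2, 4 did, and without P2 replicate 1 or P4 replicate 1, 3 did. In class I presentation, the parallel pathway for cytosolic peptides, 5 of 13 genes rose in P1 and 1 fell. Between the numbers 0 of 13 passed in edgeR or DESeq2, while 3 had an unadjusted p under 0.05. Of all genes tested in edgeR, 19.4% were higher and 12.1% lower in P1, and 0.321% passed between the numbers, a share that 0 of 10 and 0 of 13 lie near. Psmb8, a subunit of the immunoproteasome, was at 226 and 199 CPM in P1 against 14.3 to 59.5 CPM (2.52 ± 0.30, adjusted p = 0.000279 in edgeR). B2m, the light chain of class I, was at 1878 and 997 CPM against 276 to 692 CPM, and did not pass without P1 replicate 1 (edgeR, adjusted p = 0.0173). Without P1 replicate 1, and likewise without P1 replicate 2, 2 genes of the class I list rose and 1 fell. Between the P1 libraries, 10 of 14 class I genes and 11 of 16 interferon-induced genes were higher in that numbered 1, against 0 of the 7 class II genes. These counts compare single libraries, and the share over all genes tested was not computed for them, so they are a description only.

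The costimulatory ligands that T cells need beside class II were scarce. Cd86 had no count in any library, Cd80 had at most 4 and Cd40 at most 4, while Icosl was at 11.4 and 2.68 CPM in P1 and at 6.67 to 21.8 CPM elsewhere. Icosl, the only one of the list that was tested, did not pass in P1 or between the numbers over all libraries in edgeR or DESeq2, and its unadjusted p was under 0.05 between the numbers only.

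RNA from immune cells was present in P1, and its lists differed in direction between the P1 libraries. Over all genes tested in edgeR, 19.4% were higher in P1 and 0.321% passed between the numbers. Of 17 T cell and intraepithelial lymphocyte genes, 14 were tested and 12 rose in P1. Their summed level was 1123 and 327 CPM in P1, 173 and 3.11 CPM in the libraries labelled P3, and 1.34 to 7.04 CPM in the other 6. The most abundant was Gzma, a granzyme, at 392 and 129.6 CPM in P1. Cd3e, a chain of the T cell receptor complex, was at 27.6 and 10.4 CPM in P1, 12.2 and 0 CPM in the libraries labelled P3, and at or near 0 elsewhere. Of 15 pan-leukocyte genes, 11 rose in P1. Their sum was 471 and 213 CPM in P1, 116 and 169 CPM in the libraries labelled P2, 151 and 19.5 CPM in those labelled P3, and 10.2 to 16.0 CPM in P4 and P5. Cytip led this list over the P1 libraries together, although Ptprc lay above it in the P1 library numbered 1. Ptprc, the common leukocyte antigen, was at 113 and 25.8 CPM in P1, and its adjusted p in edgeR was 0.0235 without P1 replicate 1. Of the 15 pan-leukocyte genes, 14 were higher in the P1 library numbered 1 than in that numbered 2, as were 15 of the 17 T cell genes. The exception among the pan-leukocyte genes was Cytip, at 80.1 CPM in number 1 and 102.4 CPM in number 2. Of the 12 B cell genes 3 were higher in number 1, and of the 3 plasma cell genes 0. The plasma cell sum was 11.4 CPM in number 1 and 21.9 CPM in number 2, and Igkc was at 22.2 and 44.2 CPM, so these lay on the same side as class II. So did the Paneth genes, with 0 of 7 higher in number 1 and sums of 19618 and 62922 CPM. Of the 12 macrophage and monocyte genes 2 were higher in number 1, although their sum was (192 and 153 CPM). Of the 16 enterocyte genes, 14 were higher in number 1. For all these counts between the P1 libraries, the share over all genes tested was not computed, so they are a description only. Between the numbers over all populations, 0 of 15 pan-leukocyte and 0 of 14 T cell genes passed in edgeR or DESeq2, and 9 of each list had an unadjusted p under 0.05. Without either library of P2, 1 pan-leukocyte gene, Ptprc, passed as lower in number 2 (edgeR, adjusted p = 0.00838 and 0.00886). Without P1 replicate 1, 2 pan-leukocyte genes and 6 T cell genes passed, and without P1 replicate 2, 10 of each did.

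Apart from Itgax, the defining markers of professional antigen-presenting cells were at or near 0. Of the B cell list, Cd79a, Pax5, Fcrla and Cr2 had at most 3 counts in every library. The sum of its 12 genes was 55.4 and 64.4 CPM in P1, 57.9 and 98.1 CPM in the libraries labelled P2, and 6.88 to 19.6 CPM elsewhere. It was led by Igkc in P1 and by Spib, which epithelial cells also express, over all libraries. Of the dendritic cell list, 8 of 11 genes, among them Flt3, Zbtb46, Xcr1 and Batf3, had at most 3 counts in every library, and its sum of 20.2 and 3.85 CPM in P1 was almost all Itgax (19.5 and 3.68 CPM). Itgax, a defining marker of dendritic cells here, can also be carried by intraepithelial lymphocytes, and which cells it came from was not tested. Of the 12 macrophage and monocyte genes, Csf1r, Emr1, C1qc, Fcgr1 and Ms4a7 had at most 3 counts. The sum of the list over all 10 libraries was led by Mertk, which was lower in number 2 in 5 of 5 populations (-1.53 ± 0.17, edgeR, adjusted p = 0.00451) and the only 1 of the 4 tested genes called between the numbers, also in DESeq2. It did not pass under 10 alternatives, namely on library size alone, without any 1 library of P1, P3, P4 or P5, and without both P1 libraries, with adjusted p-values of 0.0123 to 0.0349. In edgeR, 2 of 3 tested B cell genes (1 without either P1 library) and 1 of 1 dendritic cell gene (0 without P1 replicate 1) were higher in P1. Likewise higher were 1 of 2 plasma cell genes and 1 of 3 innate lymphoid cell genes in edgeR, whereas DESeq2 called 0 and 1. Without either P1 library or P5 replicate 2, edgeR called 0 of each. The innate lymphoid count was also 0 without either P2 library or P4 replicate 2, and 2 without P3 replicate 1. Of 2 endothelial and stromal genes 0 passed in edgeR or DESeq2, and 1 had an unadjusted p under 0.05. Beside these counts, 19.4% of all genes tested were higher in P1 in edgeR. The part of these cells in the class II levels was not tested beyond these values. In P4 and P5 the T cell sum was at most 7.04 CPM, the dendritic cell sum at most 0.953 CPM and the B cell sum 6.88 to 10.7 CPM. The macrophage and monocyte sum was 81.3 and 40.3 CPM in P4 and 138.5 and 56.1 CPM in P5, beside a class II sum of 50.4 and 308 CPM in P4 and 101.2 and 366 CPM in P5.

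**Figure D3:**
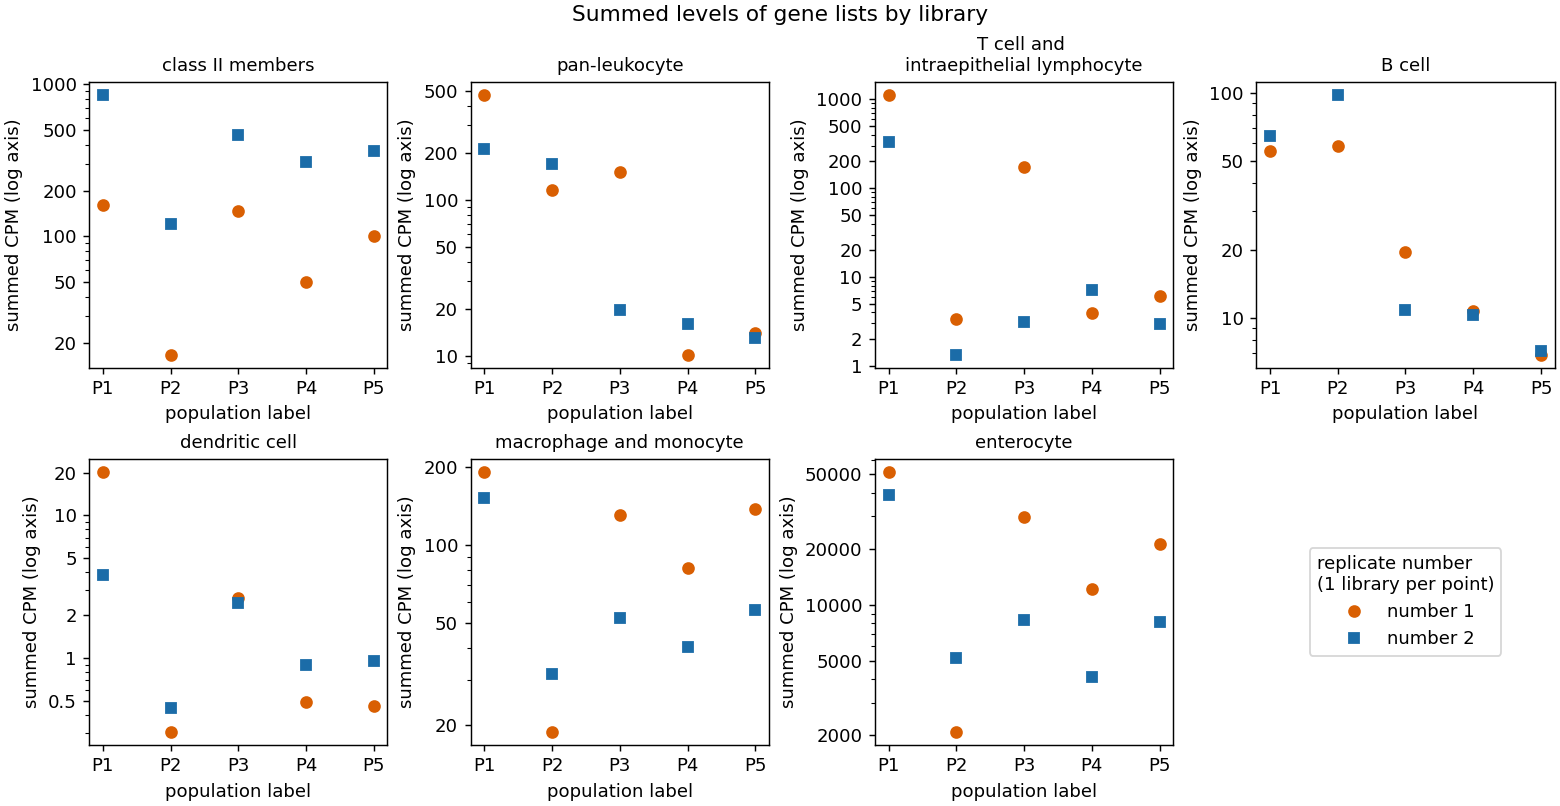
Summed levels of 7 gene lists in the 10 libraries, in CPM on a log axis, against the population label; circles are the libraries numbered 1 and squares those numbered 2. The class II sum is higher in number 2 in every population, while the T cell and intraepithelial lymphocyte sum in P1 is 1123 CPM in number 1 and 327 CPM in number 2.

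Epcam, the antigen of the sort, was at 542 and 644 CPM in P1 and at 672 to 1614 CPM elsewhere. Of 16 enterocyte genes, 7 rose in P1 and none fell, with a summed level of 51507 and 38859 CPM there, and Fabp2 was the most abundant. For all genes tested in edgeR the shares were 19.4% higher and 12.1% lower in P1. Without P1 replicate 1, 3 of the 16 passed, and without P1 replicate 2, 4 did. The enterocyte sum was higher in number 1 than in number 2 except in the libraries labelled P2 (2094 and 5229 CPM). Krt20, a keratin of differentiated villus cells, was at 6426 and 5708 CPM in P1 against 214 to 1199 CPM (3.71 ± 0.43, edgeR, adjusted p = 0.000265). Of the 8 stem cell genes, 5 fell in P1 (2 without P1 replicate 1, and 3 without P1 replicate 2, P2 replicate 1 or any 1 library of P4 or P5). The class II sums were lowest in the libraries labelled P2 (16.8 and 120.4 CPM), which were richest in Paneth, goblet and enteroendocrine transcripts. In P1 against the average of P2 to P5, edgeR called 2 of 7 Paneth genes higher, 1 of 8 goblet and 2 of 8 enteroendocrine genes lower, and 0 of 5 tuft genes. DESeq2 called 5, 7, 3 and 0 of them, and 6, 7, 3 and 0 had an unadjusted p under 0.05 in edgeR. The Paneth count in edgeR was 0 without P1 replicate 2 and 1 without P2 replicate 2 or either P4 library. The goblet count was 5 without P2 replicate 1 or P3 replicate 1, and 0 without P1 replicate 1 or any 1 library of P4 or P5. The enteroendocrine count was 0 without either P1 library and 1 without any 1 library of P2, P4 or P5, and the tuft count was 1 without P3 replicate 2. Among 8 general epithelial genes 1 was higher and 3 were lower in P1, against 1 and 0 without P1 replicate 1, and 1 and 1 without P1 replicate 2.

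Several genes with other roles separated the numbers alongside class II, and those named here were chosen after their values were seen. Arntl, an activator of the circadian clock, was at 3.35 to 11.9 CPM in number 1 and at 29.2 to 61.9 CPM in number 2 (2.39 ± 0.18, edgeR, adjusted p = 0.000671). Dbp, an output gene of the clock in the opposite phase, was at 13.7 to 209.7 CPM in number 1 and at 0.666 to 22.2 CPM in number 2 (-4.29 ± 0.50, adjusted p = 0.00529 in edgeR). Per2 and Per3 were also lower in number 2, by log2 fold changes of -2.15 ± 0.25 and -2.92 ± 0.26. Fabp6, the bile acid binding protein of the ileum, was at 0 to 8.64 CPM in number 1 and at 4.68 to 99.5 CPM in number 2 (3.67 ± 0.32, edgeR, adjusted p = 0.00142). Without both P1 libraries none of these 5 passed, and the highest adjusted p in edgeR over their alternatives was 0.0379. Per3 and Fabp6 did not pass without P1 replicate 1 (0.0101 and 0.0136) or P1 replicate 2 (0.0117 and 0.0253). Dbp and Per2 did not pass when any 1 library of P1, P3, P4 or P5 was left out, with adjusted p-values of 0.0113 to 0.0238 and of 0.0122 to 0.0354. Sex-linked transcripts, clock genes and an ileal gene therefore differed together with Cd74, H2-Eb1 and H2-Ab1, and their parts cannot be told apart in this design. Enterocyte sums were also lower in number 2 in P3 (29703 and 8335 CPM), P4 (12221 and 4100) and P5 (21149 and 8078). Stem cell sums were higher there (608 and 3165, 5083 and 7425, 4469 and 7269 CPM). Both ran the other way in the libraries labelled P2, and in edgeR 0 of 16 and 0 of 8 of these genes passed. The part of cell composition was not tested.

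Of 8 tested epithelial antimicrobial genes, 1 was called higher in number 2 by edgeR, against 0.124% of all genes tested. DESeq2 called 4 of the 8 higher and 1, Il18, lower. The list had a median log2 fold change of 1.01. Nos2, Duox2 and Duoxa2 were named after their values were seen. Nos2, the inducible nitric oxide synthase, was at 0 to 2.37 CPM in number 1 and at 3.57 to 36.8 CPM in number 2 (4.94 ± 0.49, edgeR, adjusted p = 0.00245). It did not pass without P1 replicate 2, without P4 replicate 2 or without both P1 libraries, with adjusted p-values of 0.0117, 0.0103 and 0.0210 in edgeR. Reg3g, a bactericidal lectin (1.54 ± 0.27, adjusted p = 0.0393), Duox2 (2.80 ± 0.50, 0.0473) and Duoxa2 (3.35 ± 0.64, 0.0639) did not pass in the same edgeR test. Reg3g passed without either P3 library (0.00992 and 0.00999) and Duox2 without either P2 library (0.000142 and 0.000132).

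**Figure D4:**
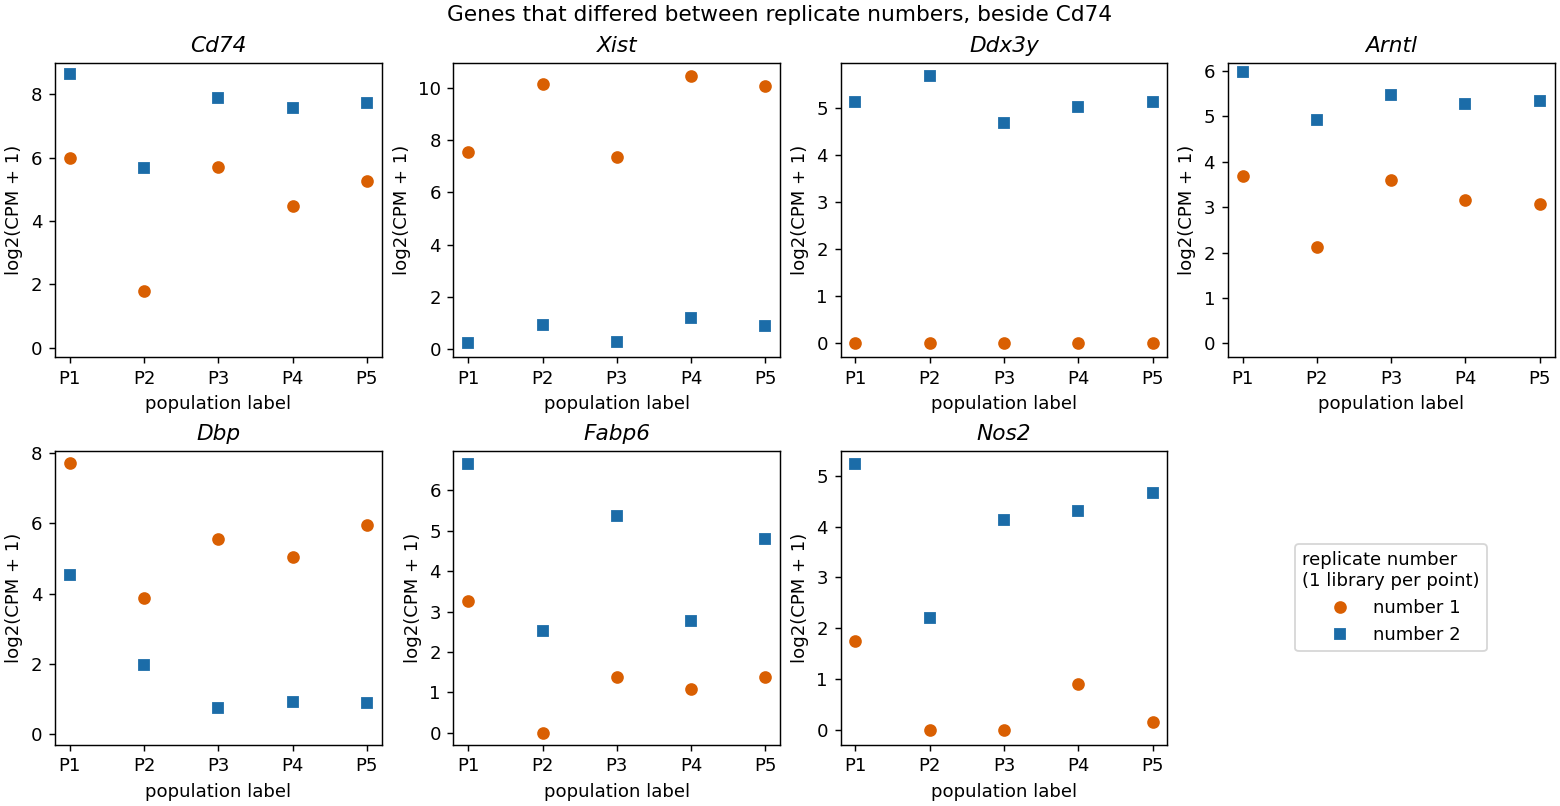
Levels of Cd74 and of 6 other genes in the 10 libraries as log2(CPM + 1), against the population label; circles are the libraries numbered 1 and squares those numbered 2. Xist and Dbp are higher in number 1 in every population, and Cd74, Ddx3y, Arntl, Fabp6 and Nos2 in number 2.

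The genes most like the 7 members over the 10 libraries were found by the Pearson correlation of log2 CPM with the mean standardised level of the members, as a description. Slc34a2, a phosphate transporter, came first (r = 0.958), at 19.1 and 96.5 CPM in P1, 0 and 12.5 CPM in the libraries labelled P2, and 8.48 and 40.9 CPM in P5. Dclk3 (r = 0.943), Fabp6 (0.933), Pkig (0.933), Oma1 (0.932) and Metap1 (0.926) followed, and Gm13540, Rnf152, Rnf186 and Urm1 had r between 0.903 and 0.920. No gene of the immune lists was among these 10. The largest of those lists held 17 of the 35006 gene names, so such an absence is near their share of all genes. Each member's own r with the mean of the other 6 was between 0.752 for H2-DMa and 0.973 for Cd74. The 10 libraries share populations and numbers, so they are not 10 independent points.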

How the data were processed

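Poly-A RNA of 10000 sorted cells per library was sequenced on a NextSeq 500. Per the labels, the authors aligned reads to mm9 with TopHat2 2.1.0 and Bowtie and counted them per gene with HTSeq 0.11.2 after FastQC 0.11.5; the deposited values are raw read counts per gene name, and reads matching several places were left out. Rows that name no gene held 18.7% to 44.3% of each file's counts and were not used. From these counts, 206 ribosomal RNA names were removed, and edgeR 4.0.16 (R 4.3.3) was run on all 10 libraries with filterByExpr, TMM and a quasi-likelihood fit with population means, leaving 13706 genes. P-values were adjusted by Benjamini-Hochberg over all genes and called under 0.01. The number contrast added a term for replicate number and was chosen after the values were seen. SE is the log2 fold change divided by the root of F. Alternatives were DESeq2 1.42.0 (test and size factors), library size alone, no filter, ribosomal RNA kept, mitochondrial genes removed, a threshold of 0.05, the replicate block, the populations compared alone and each library left out. The scripts were tested on simulated data. Lengths and positions came from GENCODE vM1 (NCBIM37). Python 3.11.15, pandas 2.3.3, numpy 2.4.6 and matplotlib 3.10.9 made tables and figures. The members and lists were chosen with earlier results of these data known.

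Named genes were the members, every gene of the lists of other class II genes, promoter regulators, interferon gamma signalling and costimulatory ligands, the 3 highest in P1 and over all libraries and the 2 largest changes in P1 of each other list, the defining markers, and the 10 most correlated genes; other names were chosen after their values were seen and are marked so where they are given. Some genes of these lists are not reported here.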

Additional observations from a re-analysis of the deposited data

Results flagged for a closer look

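H2-DMa in the libraries labelled P2 moved against the other populations between the numbers. Its log2 ratio of library 2 to library 1 was -0.19 there, on 5 and 6 counts, while it was positive in the other 4 populations. The difference between populations was not tested, and these counts are too few to separate the levels.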

How the results depend on the processing

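For P1 against the average of P2 to P5 (4317 genes), library size alone gave 2536 and a threshold of 0.05 gave 6542. For P1 against P2 (3989), the looser threshold gave 6462. For P1 against P3 (2132), library size alone gave 1164, the DESeq2 test 3559, no filter 4005, the looser threshold 4652 and a fit of these 2 populations alone 0, with 4445 genes at an unadjusted p under 0.05 in edgeR. For P1 against P4 (3214), the values were 2123 on library size alone, 5026 with no filter and 5777 at the looser threshold. For P1 against P5 (2715), they were 1334, 4616 and 5385, and 4183 in the DESeq2 test. The share higher in P1 moved by scaling. It was 52.2% against P2 (72.9% on library size alone and 45.7% with mitochondrial genes removed), 48.5% against P3 (91.2% and 45.0%), 59.7% against P4 (23.6% and 46.9%) and 56.6% against P5 (19.6% and 46.2%). The median of all genes for P1 against the average went from -0.05 to -0.17 on library size alone and to -0.19 with mitochondrial genes removed, while the member median went from 1.45 to 1.25 and 1.32. Between the numbers (44 genes), the median of all genes went from 0.03 to 0.25 on library size alone.

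Leaving out each library in turn gave 1595 to 5414 genes for P1 against the average, lowest without P1 replicate 1, with 2044 without P1 replicate 2. It gave 1576 to 5046 against P2, with 1951 and 2146 without P1 replicates 1 and 2, and 1576 and 2465 without those of P2. Against P3 it gave 0 to 2126, with 312 without P1 replicate 2, 1259 without P3 replicate 2, 1215 and 1220 without the P4 libraries and 1420 without P5 replicate 2. Against P4 it gave 0 to 4412, with 833 and 1172 without the P1 libraries. Against P5 it gave 0 to 3931, with 574 without P1 replicate 2, 1613 and 1608 without the P4 libraries and 384 without P5 replicate 1. The counts of 0 in edgeR came without P1 replicate 1 against P3 and P5 (5023 and 5543 genes at an unadjusted p under 0.05), without either P4 library against P4 (5612 and 5301) and without P5 replicate 2 against P5 (4989). A population left with 1 library is assumed to vary like the others. The cause of these changes was not tested.

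Between the numbers, the DESeq2 test called 188 genes, no filter 201, the looser threshold 98, the libraries without both P1 libraries 5 and P4 and P5 only 1150, the last 2 chosen after seeing the data. Leaving out 1 library gave 12 (without P1 replicate 2) to 128 (without P2 replicate 1), with 13 without P1 replicate 1, 127 without P2 replicate 2, 19 and 18 without the P4 libraries and 19 without either P5 library. Defa17 and Spink4, at log2 fold changes of 0.03 and 0.55 and not called over all libraries, were called lower in P4 and P5 only, at -1.21 and -0.57; the cause was not tested. Of 261 tested results for named genes, 135 kept the same side of the threshold under every alternative. Of the 77 that were called, 20 were called under every alternative. Over 4795 alternative values 235 lost a call, 153 gained one and 2 changed direction.

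With the replicate block, 4816 genes were called for P1 against the average, 4519 against P2, 2597 against P3, 3881 against P4 and 3345 against P5. The deviations of libraries sharing a number correlated above 0.1 in 9 of 10 pairs of populations, from -0.06 (P2 with P3) to 0.55 (P4 with P5), so the rule for pairing, a correlation above 0.1 in every pair, was not met and the block is given only here. The term for number in the contrast between the numbers does not rest on that rule. Depth limits H2-DMb1 and Ciita in number 1 most, with at most 31 counts a library.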
